A study of Mus musculus with 12 samples.

Results

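Phase II conjugation enzymes attach a sugar acid, a sulfate or glutathione to a drug, hormone or metabolite. The genes described here are the UDP-glucuronosyltransferases (Ugt), the cytosolic sulfotransferases (Sult) and the glutathione S-transferases (Gst) of mouse liver. A gene was taken as a member when its symbol belonged to the Ugt1 to Ugt3, the Sult1 to Sult7 or the alpha, kappa, mu, omega, pi or theta Gst subfamilies, and when 2 or more of the 12 libraries held 10 or more counts. This gave 50 members of the 55357 genes in the count table, namely 17 Ugt, 12 Sult and 21 Gst genes. The pattern matched 66 symbols in all, and the 16 that fell below the minimum include Ugt1a2, Sult2a1 and Gstt4. Of the 50 members, 49 passed the filter for the test, which covered 17358 genes, and Gsto2 did not.

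RNA was sequenced from the liver of 12 male C57BL/6J mice. All 12 carried floxed alleles of Ppara (PPARa fl/fl), the gene of a nuclear receptor for fatty acids. The WT mice (PPARa fl/fl AlbuminCre +/+) have no Cre, and in the PPARα KO mice (PPARa fl/fl AlbuminCre Tg/+) an Albumin promoter drives Cre, which directs the deletion to hepatocytes. From 7 weeks of age the mice ate chow or CDAHFD, a choline-deficient high-fat diet with defined amino acids, for 6 weeks. There were 4 libraries of WT chow, 3 of WT CDAHFD, 2 of KO chow and 3 of KO CDAHFD. Nothing in the labels says that libraries share an animal, and each was taken as a separate mouse.

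Conjugation makes a compound more soluble and marks it for export into bile or urine. Ugt enzymes sit in the endoplasmic reticulum and take glucuronic acid or another sugar from a UDP-sugar, Sult enzymes take sulfate from PAPS in the cytosol, and Gst enzymes join glutathione to electrophiles, many of them products of lipid peroxidation. In liver these genes are known to respond to the nuclear receptors CAR, PXR, FXR and PPARα, to the aryl hydrocarbon receptor and to the stress factor NRF2, and several differ between male and female mice. The Ugt1a genes of chromosome 1 are alternative first exons, each with its own promoter, joined to a shared set of last exons. The Ugt2b, Gstm and Sult2a genes lie in clusters of close copies. Of the Gsta members, Gsta1, Gsta2 and Gsta4 lie on chromosome 9 and Gsta3 lies on chromosome 1.

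Promoters are shown for some members that moved in different directions within a subfamily, picked after the values were seen. Others, such as Ugt1a7c in the Ugt1a locus and Gstm7 in the mu class, are not shown. Set against WT chow, Gsta1 and Gsta2 rose in KO chow and WT CDAHFD while Gsta3, of the same class, fell. The fall of Gsta3 in KO chow was not kept under every alternative setting. In KO chow Ugt1a1 fell where Ugt1a9 of the same locus rose, and a rise of Ugt1a9 was not seen in WT CDAHFD. The RefSeq promoter windows below run from 250 bases before to 50 bases after the gene start on GRCm38.p6, 5′ to 3′ on the strand of the gene. Capitals mark the letters of a searched motif, namely TTCNNNGAA (STAT5) in Gsta1, TNGCGTG (AhR core) in Gsta2 and TGACNNNGC (the core of the antioxidant response element, ARE) in Gsta3.
Gsta1 (chr9:78230419-78230718, + strand): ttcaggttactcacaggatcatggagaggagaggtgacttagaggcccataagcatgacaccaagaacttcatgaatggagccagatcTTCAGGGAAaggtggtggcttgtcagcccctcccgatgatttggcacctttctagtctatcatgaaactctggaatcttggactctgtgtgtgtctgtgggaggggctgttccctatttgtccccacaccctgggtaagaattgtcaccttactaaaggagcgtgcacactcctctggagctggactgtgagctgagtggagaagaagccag
Gsta2 (chr9:78347096-78347395, - strand): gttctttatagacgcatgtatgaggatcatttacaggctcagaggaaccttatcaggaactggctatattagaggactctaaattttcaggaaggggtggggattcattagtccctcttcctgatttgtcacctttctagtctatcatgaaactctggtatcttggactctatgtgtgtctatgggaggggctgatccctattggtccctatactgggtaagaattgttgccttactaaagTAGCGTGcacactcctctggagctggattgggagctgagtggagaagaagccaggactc
Gsta3 (chr1:21240335-21240634, + strand): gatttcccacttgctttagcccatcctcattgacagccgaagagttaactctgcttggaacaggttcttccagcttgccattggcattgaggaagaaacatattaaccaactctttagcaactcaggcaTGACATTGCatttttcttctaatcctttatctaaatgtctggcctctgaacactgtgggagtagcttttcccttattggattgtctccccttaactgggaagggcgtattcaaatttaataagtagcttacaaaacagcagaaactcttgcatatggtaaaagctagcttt
Ugt1a1 (chr1:88211709-88212008, + strand): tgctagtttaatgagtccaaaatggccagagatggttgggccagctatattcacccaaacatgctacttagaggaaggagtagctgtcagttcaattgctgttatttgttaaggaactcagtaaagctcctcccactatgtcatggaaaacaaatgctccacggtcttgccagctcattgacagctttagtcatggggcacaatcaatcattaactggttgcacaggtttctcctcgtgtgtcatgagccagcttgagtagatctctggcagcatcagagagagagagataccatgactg
Ugt1a9 (chr1:88070529-88070828, + strand): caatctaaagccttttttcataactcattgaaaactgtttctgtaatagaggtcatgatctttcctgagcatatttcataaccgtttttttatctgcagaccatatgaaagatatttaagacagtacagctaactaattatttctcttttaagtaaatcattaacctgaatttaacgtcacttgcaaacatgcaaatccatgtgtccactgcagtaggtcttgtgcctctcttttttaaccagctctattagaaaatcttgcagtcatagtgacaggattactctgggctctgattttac
The match in Gsta1 began 162 bases before the gene start, that in Gsta2 9 bases and that in Gsta3 121 bases before it. No searched motif was found in these windows of Ugt1a1 and Ugt1a9. The windows of Gsta1 and Gsta2 shared 239 of 313 aligned columns (76.4%), while Gsta1 and Gsta3 shared 54.0%, Gsta2 and Gsta3 53.9%, and Ugt1a1 and Ugt1a9 51.8%. Of the members, 42 had a RefSeq window, 52 windows in all, and Gsta4, Gstm2-ps1, Gstt2, Sult2a2, Sult2a7, Sult4a1, Ugt1a6b and Ugt3a2 were not matched. Both strands were searched in 32851 windows of all genes. TGACNNNGC was in 12.4% of all windows and in 3 of the 52 (Gsta3, Gstm5, Gstm7), TTCNNNGAA in 8.3% of all and in 3 (Gsta1, Gstm6, Ugt1a6a), and TNGCGTG in 5.07% of all and in 3 (Gsta2, Sult1d1, Ugt1a5). DR1, a direct repeat of AGGTCA spaced by 1 base, was in 0.0396% of all windows and in 0 of the 52. A match of letters is a description and no site of binding.

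Total counts ran from 29906785 to 43551003 per library. Levels are given as CPM, the counts of a gene relative to the size of the library, with sizes scaled with TMM, a method that assumes that most genes do not differ, and the TMM factors were 0.729 to 0.827 in WT chow and 1.026 to 1.258 in the other libraries. Scaling by the total count alone moved the median difference of all genes by 0.40 on the log2 scale in KO chow against WT chow and by 0.56 in WT CDAHFD against WT chow, so differences from WT chow are relative to that choice. The targeted gene Ppara, counted as a whole gene and not by its deleted part, had 96.2 to 237.8 CPM in WT chow, 59.5 to 75.5 in WT CDAHFD, 14.4 to 38.7 in KO chow and 20.7 to 51.9 in KO CDAHFD, and no KO library reached a WT library. Xist was at most 0.17 CPM in every library and the Y-linked genes were present in all. A score of clock genes, the mean log2 level of Dbp, Nr1d1 and genes of their phase against Arntl, Npas2 and Clock, split WT chow into −3.81 and −3.22 in replicates 1 and 2 and 3.33 and 3.32 in replicates 3 and 4. In KO chow it was −3.22 and 1.39, in WT CDAHFD −1.33 to −2.32 and in KO CDAHFD −1.80, −1.64 and 3.74. The part of this score in the results was not tested beyond the fit that holds it as a covariate.

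Most members differed from WT chow in the livers of KO chow or WT CDAHFD mice. The called Ugt members were mostly lower, and those of the Sult and Gst families went in both directions. A gene was called where the adjusted p of edgeR’s quasi-likelihood test lay under 0.05. In KO chow 12 of the 49 tested members were higher and 19 lower than in WT chow, where 22.0% of all genes tested were called higher and 17.0% lower. In WT CDAHFD 12 were higher and 25 lower, against 26.1% and 25.0% of all genes. With the total count as the only scaling 16 members were higher and 13 lower in KO chow, against 7037 and 1149 of the 17358 genes tested. In WT CDAHFD 18 were higher and 13 lower with that scaling, against 9092 and 1170 of all genes tested. The median log2 fold change of the members was −0.196 in KO chow, against 0.00217 for all genes tested, and −0.55 in WT CDAHFD, against −0.05. Both comparisons share the 4 WT chow libraries. Side by side, 11 members were higher in both, 18 were lower in both, 10 were called in neither and 0 were called in opposite directions. Shared WT chow libraries favour calls in the same direction for any gene. The same counts were not made over all genes tested, so nothing particular to the members is read from them. Ugt1a9 was higher in KO chow alone and Sult1e1 in WT CDAHFD alone by the threshold. Ugt1a6b was lower in KO chow alone, and 7 members (Gstm7, Gsto1, Gstt2, Gstt3, Sult1a1, Ugt1a10, Ugt2b34) were lower in WT CDAHFD alone. Ugt1a10 reached 10 counts only in WT chow, with 4 to 19 counts there and 6 to 9 in WT CDAHFD. It is a member only through the group where it was high, so its call is not independent of the rule.

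**Figure D1:**
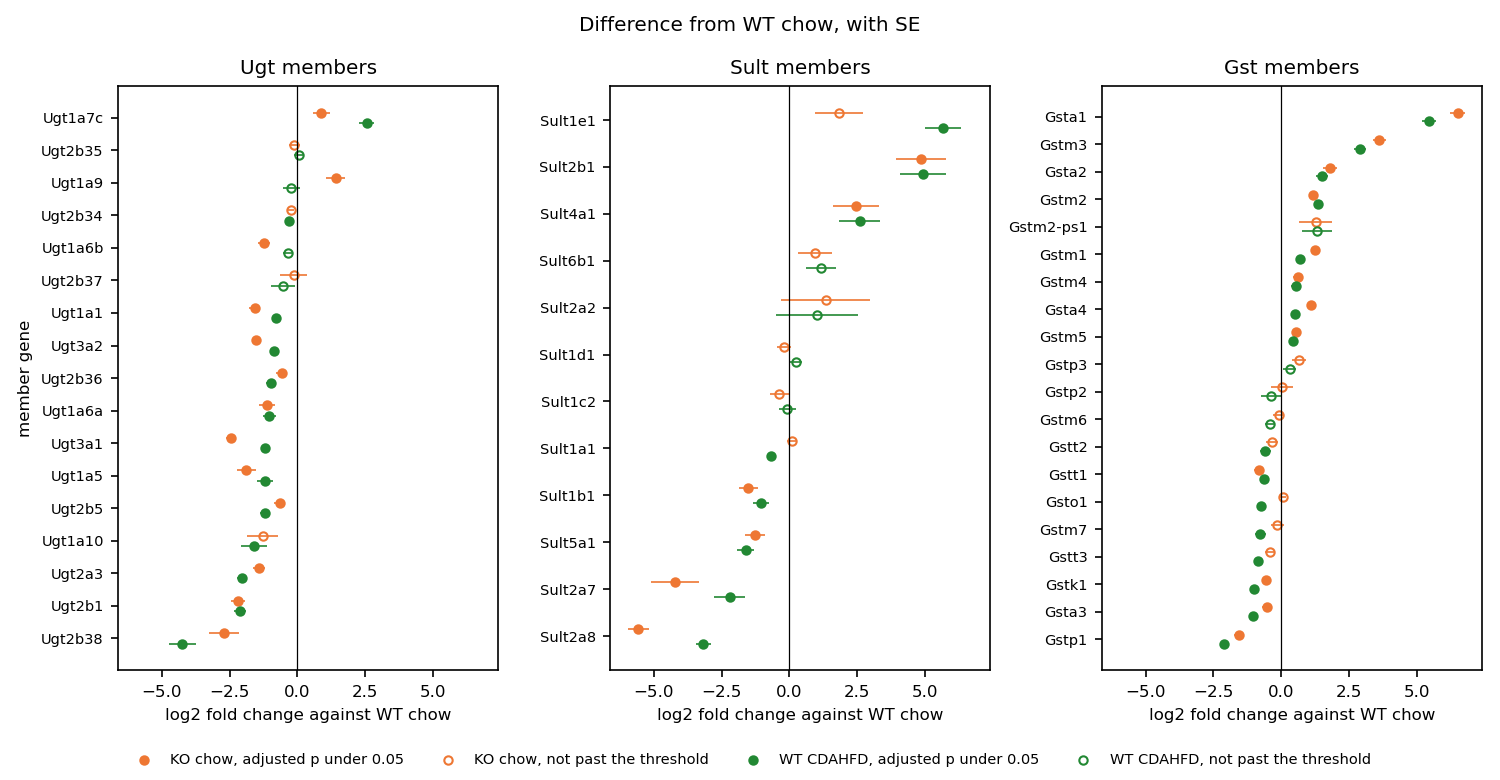
Log2 fold change against WT chow (x axis, with SE) of the 49 tested members (y axis, by family) in KO chow (orange) and WT CDAHFD (green). Filled points are past an adjusted p of 0.05. In KO chow 11 of 17 Ugt members lie to the left as called, while 8 of 20 Gst members lie to the right as called.

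In KO chow the Ugt family had 2 members higher, 11 lower and 4 not called, the Sult family 2, 4 and 6, and the Gst family 8, 4 and 8. In WT CDAHFD the Ugt family had 1 higher, 12 lower and 4 not called, the Sult family 3, 5 and 4, and the Gst family 8, 8 and 4. The summed Ugt level was 5208 ± 1072 CPM (SD, n = 4) in WT chow, 2840 ± 56.5 in KO chow (n = 2), 2537 ± 53.6 in WT CDAHFD (n = 3) and 2177 ± 154 in KO CDAHFD (n = 3). The summed Sult level fell from 1824 ± 438 CPM in WT chow to 409 ± 22.6, 476 ± 14.5 and 472 ± 90.5 in the same order. The summed Gst level was 6599 ± 485, 6043 ± 727, 4233 ± 165 and 3927 ± 569 CPM, and in KO chow its log2 ratio of means to WT chow changed sign from −0.13 to 0.28 with the total count as the only scaling. These sums are given as description, with no test.

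**Figure D2:**
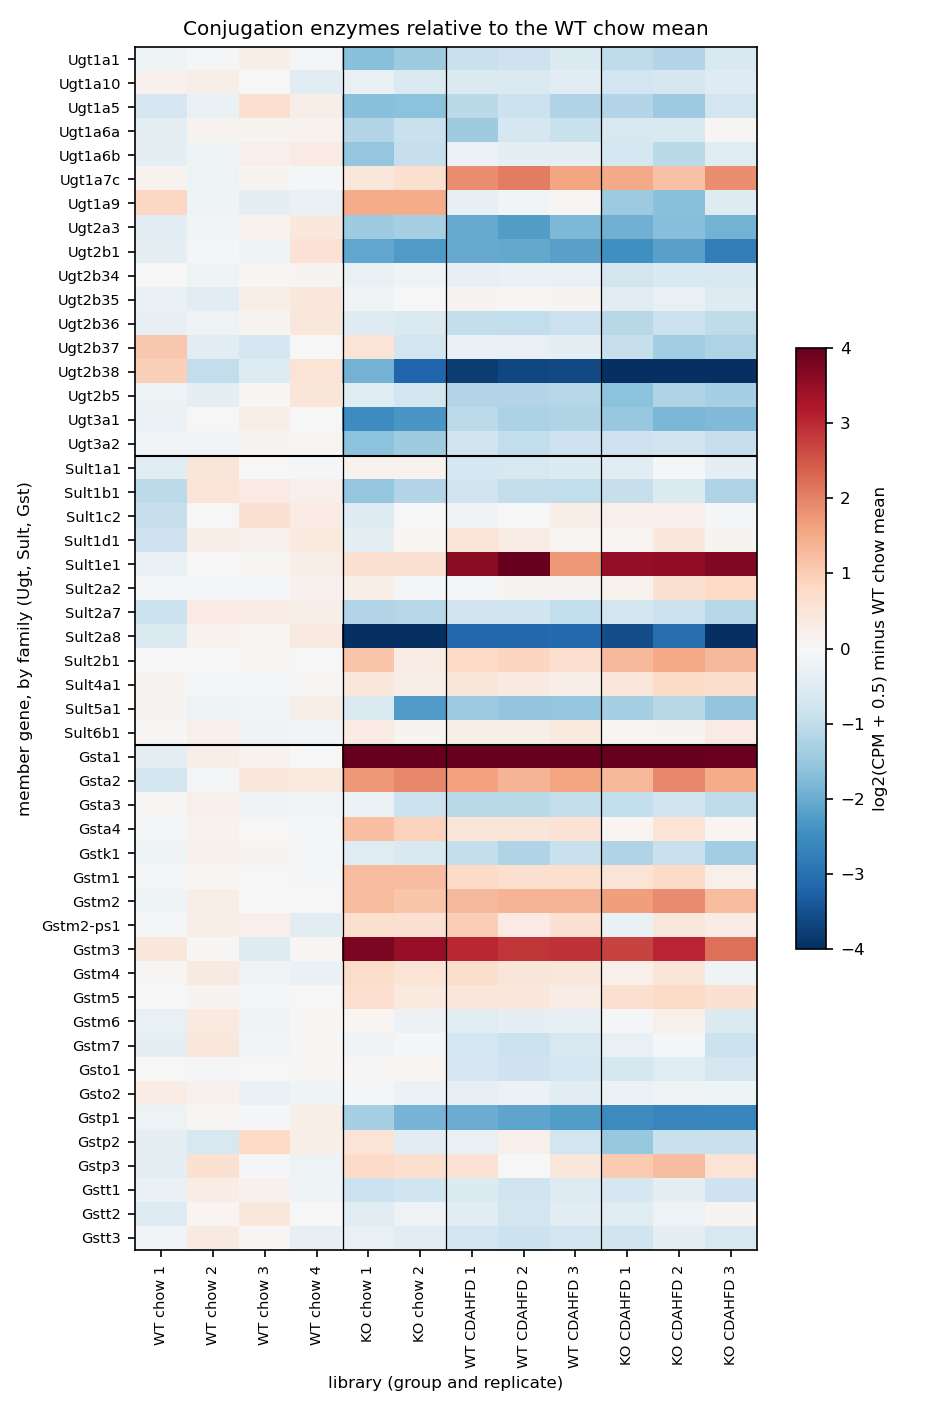
Level of all 50 members (y axis, by family) in the 12 libraries (x axis), as log2(CPM + 0.5) minus the mean of WT chow, red above and blue below. Gsta1 and Gstm3 are red and Sult2a8, Ugt2b1 and Ugt2b38 blue in every library outside WT chow.

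The Gst genes moved in both directions. The pi class Gstp1, a major Gst of male mouse liver, fell, and the mu class Gstm1 and Gstm3 rose. Gstp1 (chr19:4035407-4037985, minus strand) had 2654, 3129, 2925 and 3554 CPM in WT chow livers, 1217 and 843 in KO chow livers, 768, 704 and 646 in WT CDAHFD and 521, 491 and 499 in KO CDAHFD. Every WT chow library lay above every other library. Its log2 fold change was −1.57 (SE 0.17, adjusted p = 1.86e-05) in KO chow and −2.12 (SE 0.15, adjusted p = 2.76e-07) in WT CDAHFD. Gstm1 (chr3:108012255-108017973, minus strand), which conjugates electrophiles, had 969, 1064, 990 and 972 CPM in WT chow livers, 2363 and 2367 in KO chow livers, 1702, 1550 and 1549 in WT CDAHFD and 1451, 1708 and 1146 in KO CDAHFD. It was lowest in WT chow and highest in KO chow with no overlap, at 1.24 (SE 0.14, adjusted p = 2.26e-05) in KO chow and 0.68 (SE 0.13, adjusted p = 0.000733) in WT CDAHFD on the log2 scale. Gstm3 (chr3:107963696-107969283, minus strand) had 61.1, 46.6, 31.0 and 46.3 CPM in WT chow livers, 617 and 510 in KO chow livers, 371, 327 and 338 in WT CDAHFD and 296, 374 and 209 in KO CDAHFD. Its fold changes were 3.61 (SE 0.24, adjusted p = 3.61e-07) and 2.90 (SE 0.22, adjusted p = 4.31e-07) on the log2 scale.

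Per kb of transcript, the scale on which genes can be set beside each other, Gstp1 held 57.8% ± 3.38 (SD, n = 4) of the Gst family in WT chow livers and 24.0% ± 3.16 in KO chow livers, 23.6% ± 1.41 in WT CDAHFD and 18.7% ± 2.71 in KO CDAHFD. The mu class held 16.1% ± 1.03 in WT chow and 49.7% ± 4.78, 48.9% ± 0.31 and 49.7% ± 4.02 in the other groups. Gstm1 alone went from 12.1% ± 0.838 to 35.6% ± 4.58, 34.0% ± 0.525 and 33.3% ± 2.12. The share of the alpha class was 18.4% ± 2.08 in WT chow livers, 19.1% ± 2.36 in KO chow livers, 19.0% ± 1.33 in WT CDAHFD and 21.8% ± 1.5 in KO CDAHFD. A share within a family does not depend on the scaling of the library, but a fall of Gstp1 by itself raises the shares of the others.

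**Figure D3:**
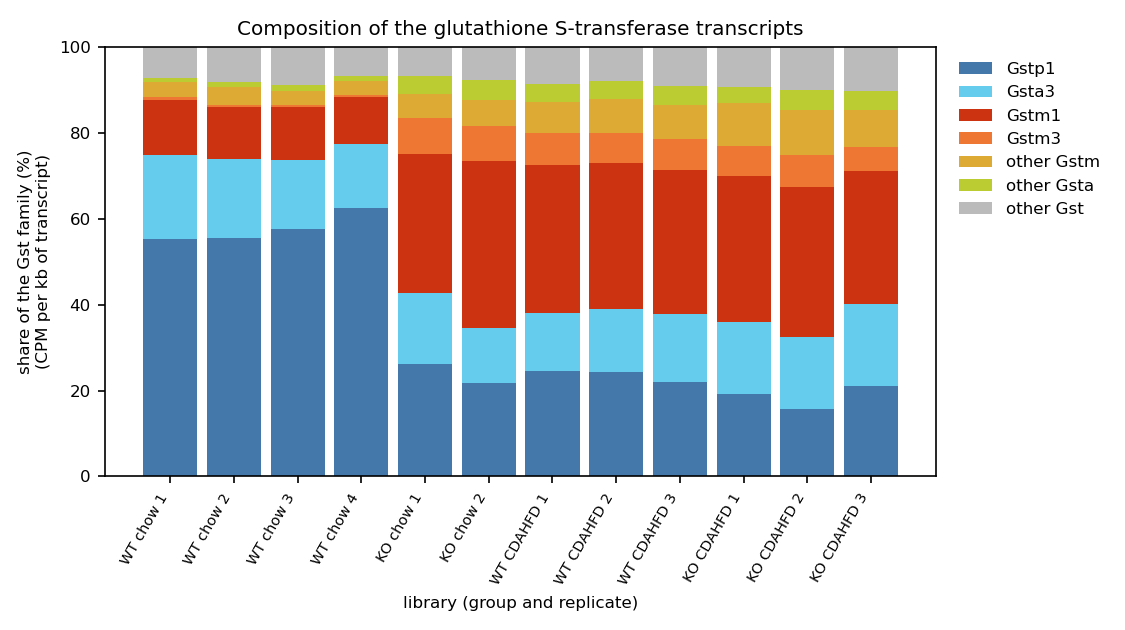
Composition of the Gst transcripts in each library (x axis), as the share of the family in percent (y axis, CPM per kb of transcript). Gstp1 takes 55.3 to 62.6% in the 4 WT chow libraries and at most 26.2% in the other libraries, where the mu class takes 45.2 to 53.1%.

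In the alpha class, Gsta1 (chr9:78230656-78242684, plus strand), an inducible enzyme, had the largest fold change of the members in KO chow. It held 0.194, 0.598, 0.50 and 0.413 CPM in WT chow, from 5 to 19 counts, 42.3 and 37.0 CPM in KO chow, 20.2, 20.04 and 16.6 in WT CDAHFD and 14.2, 21.0 and 13.7 in KO CDAHFD. All 8 libraries outside WT chow lay above it. The log2 fold change was 6.50 (SE 0.26, adjusted p = 1.44e-08) in KO chow, a 90.4-fold difference, and 5.43 (SE 0.25, adjusted p = 1.38e-08) in WT CDAHFD. Of the 50-base windows of the Gsta1 transcripts 90.5% occur in another gene, 75.7% in Gm3776 and others in Gsta2, so these genes can exchange reads. Gm3776 itself went from 0.0944 to 0.321 CPM in WT chow to 16.8 to 17.1 in KO chow and 5.88 to 7.11 in WT CDAHFD. Gsta2, with 49.8% of its windows shared, rose from 9.28, 15.2, 21.2 and 20.6 CPM to 53.3 and 61.7 in KO chow (log2 1.79, SE 0.26, adjusted p = 0.000135) and to 50.5, 41.6 and 48.5 in WT CDAHFD (log2 1.5, SE 0.23, adjusted p = 0.000171). Gsta4, which conjugates hydroxynonenal, a product of lipid peroxidation, was 51.6 to 60.3 CPM in WT chow livers, 127 and 104 in KO chow livers and 75.6 to 80.6 in WT CDAHFD, and rose by 1.09 (SE 0.14) and 0.51 (SE 0.13) on the log2 scale. Gsta3, the abundant constitutive member of the class, had 1661, 1849, 1447 and 1505 CPM in WT chow livers, 1362 and 878 in KO chow livers and 755, 756 and 836 in WT CDAHFD. Its log2 fold change was −1.05 (SE 0.15, adjusted p = 9.9e-05) in WT CDAHFD. Set against WT chow, KO chow gave −0.53 (SE 0.17, adjusted p = 0.0276), and the call was lost without KO chow replicate 2 (−0.24), without WT chow replicate 2 (−0.44) and with the total count as the only scaling (−0.13).

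Of the other Gst members, Gstm2 rose by 1.19 (SE 0.15) in KO chow and 1.35 (SE 0.14) in WT CDAHFD on the log2 scale. Gstm4 rose by 0.63 (SE 0.19) and 0.54 (SE 0.17), calls that were lost without KO chow replicate 1 and without WT CDAHFD replicate 1 respectively. Gstk1, the peroxisomal and mitochondrial kappa enzyme, fell by 0.55 in KO chow (SE 0.16, lost without KO chow replicate 2 and with the total count as the only scaling) and by 1.02 in WT CDAHFD (SE 0.14). Gstt1, of the theta class, fell by 0.84 (SE 0.18) in KO chow and by 0.64 (SE 0.16) in WT CDAHFD, the latter lost with the total count as the only scaling. Gsto1, of the omega class, had 83.8 to 91.1 CPM in WT chow and 90.2 and 93.2 in KO chow, and fell to 49.2 to 54.4 in WT CDAHFD (log2 −0.74, SE 0.09, adjusted p = 2.13e-05), a call lost with the total count as the only scaling. Gstm5 overlaps the gene 4933431E20Rik in 13.9% of its exons, and the methods describe no step that tells strands apart.

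The Sult family fell mainly through Sult2a8 (chr7:14410686-14446769, minus strand), a bile acid sulfotransferase of liver. Sult2a8 had 931, 1505, 1441 and 1780 CPM in WT chow livers, 25.4 and 34.0 in KO chow livers, 156.3, 156.5 and 158.8 in WT CDAHFD and 118, 168 and 72.7 in KO CDAHFD. The 4 groups ranked with KO chow lowest, and only WT CDAHFD and KO CDAHFD overlapped. Its log2 fold change was −5.57 (SE 0.39, adjusted p = 5.34e-07) in KO chow and −3.17 (SE 0.29, adjusted p = 1.74e-06) in WT CDAHFD. Per kb it made up 72.1% ± 3.50 (SD, n = 4) of the family in WT chow livers, 5.25% ± 0.87 in KO chow livers, 28.0% ± 0.647 in WT CDAHFD and 19.9% ± 5.04 in KO CDAHFD. Sult1a1, the phenol sulfotransferase, took over the largest share, from 20.8% ± 3.65 in WT chow livers to 76.0% ± 3.04 in KO chow livers and 45.2% ± 3.20 in WT CDAHFD. Its own level was 175, 329, 239 and 226 CPM in WT chow and 257.9 and 257.7 in KO chow (log2 0.09, SE 0.19, adjusted p = 0.737), and 145, 151 and 162 in WT CDAHFD (log2 −0.66, SE 0.17, adjusted p = 0.00666), a fall lost with the total count as the only scaling.

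Sult1e1, the estrogen sulfotransferase, had 0, 0.126, 0.133 and 0.229 CPM in WT chow, at most 5 counts, and 0.435 and 0.437 in KO chow. It reached 7.03, 10 and 1.55 CPM in WT CDAHFD and 6.52, 6.66 and 7.52 in KO CDAHFD, above every chow library. The fitted difference in WT CDAHFD was 5.66 on the log2 scale (SE 0.66, adjusted p = 1.45e-05), and in KO chow 1.84 (SE 0.88, adjusted p = 0.119). With so few counts in WT chow both values depend on the prior count, and Sult1e1 is a member through the other groups. Sult1b1, which sulfates thyroid hormones, had 13.5, 41.3, 36.3 and 33.5 CPM in WT chow, with replicate 1 within the range of the other groups, and 9.52 and 12.4 in KO chow and 14.3 to 16.5 in WT CDAHFD. It fell by 1.51 (SE 0.36) in KO chow, a call lost without KO chow replicate 1, and by 1.04 (SE 0.30) in WT CDAHFD, a call lost with the total count as the only scaling. Sult5a1 fell by 1.27 (SE 0.36) in KO chow and by 1.60 (SE 0.31) in WT CDAHFD on the log2 scale. Its KO chow libraries differed, at 12.1 and 3.42 CPM against 15.9 to 21.7 in WT chow, and without the lower of them, replicate 2, the difference was −0.62 and not called. The KO chow call was also lost with the total count as the only scaling (−0.86, adjusted p = 0.0643) and with the 2 groups alone (adjusted p = 0.0611). Sult1d1, which acts on catecholamines, had 59.9 to 139 CPM in WT chow livers, 83.5 and 112 in KO chow livers and 113 to 154 in WT CDAHFD, and was not called.

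The rest of the Sult calls rest on few counts. Sult2a7 had 4 to 32 counts in WT chow livers, 1 to 2 in KO chow livers and 5 to 10 in WT CDAHFD, and was called lower in both. Sult2b1, a cholesterol sulfotransferase, had 0 to 1 counts in WT chow livers, 5 to 22 in KO chow livers and 14 to 22 in WT CDAHFD, and Sult4a1 0 to 2, 5 to 8 and 6 to 12, both called higher in both. Neither reached 10 counts in WT chow, so both are members only through libraries where they were high. Their calls are not independent of the rule. Sult2a2 had at most 4 counts in every library outside KO CDAHFD, where it had 3, 11 and 17, and was not called. Fitted folds of these genes against WT chow depend on the prior count and are not given. A library with 0 counts allows up to 3 counts, by counting error alone.

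**Figure D4:**
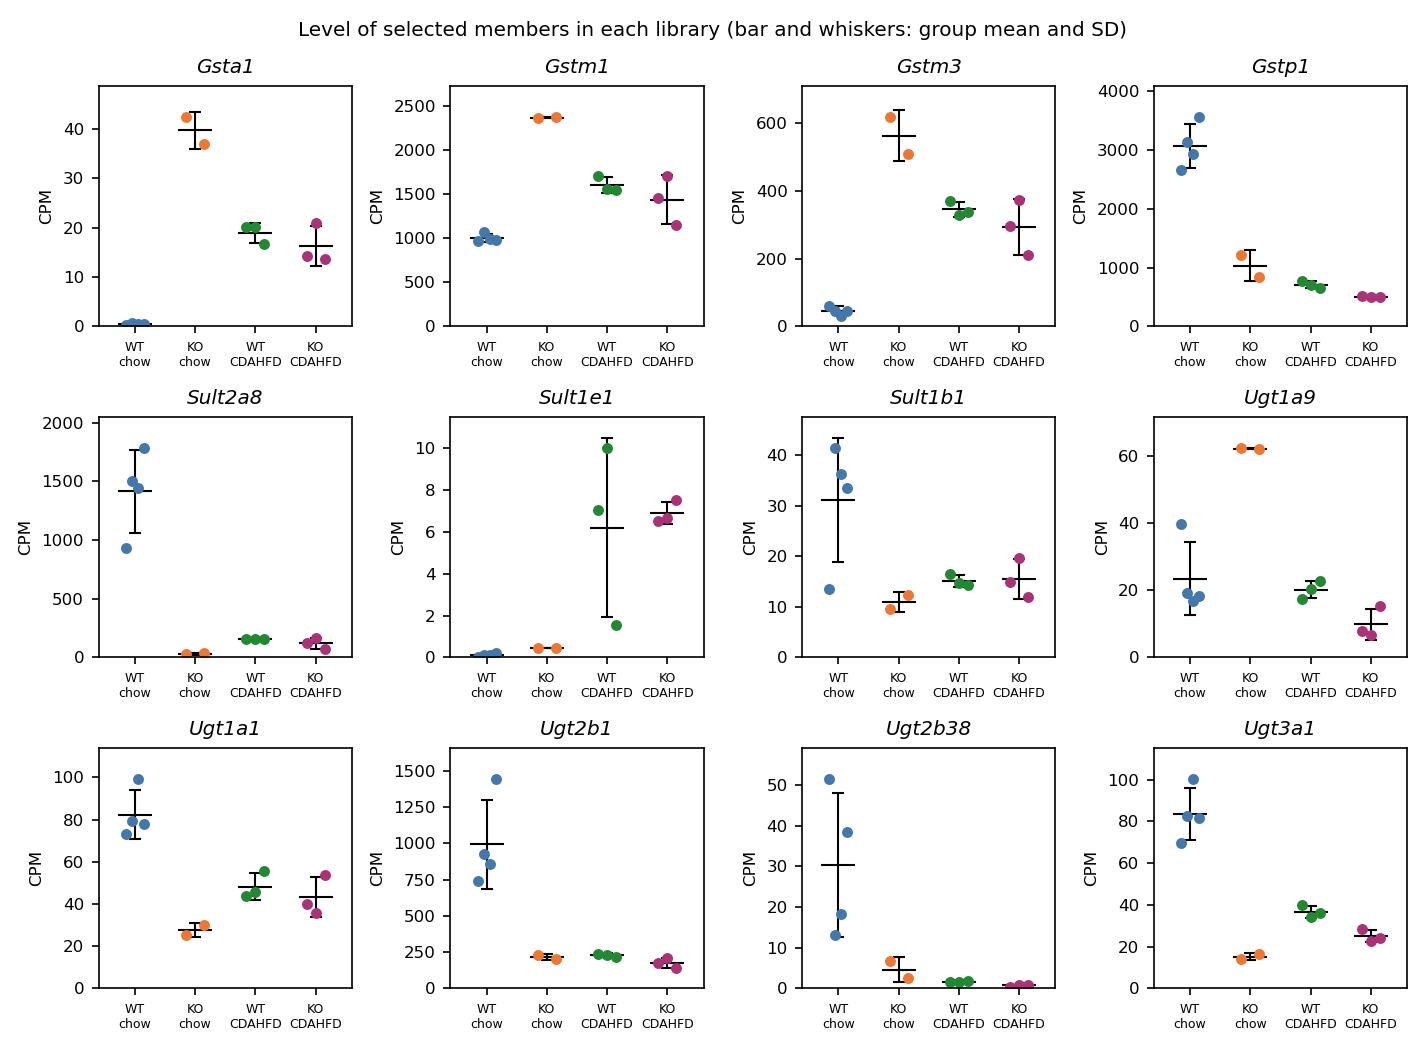
CPM (y axis, from 0) of 12 members in every library, by group (x axis), with the group mean and SD as bar and whiskers. Gstp1, Sult2a8, Ugt2b1 and Ugt3a1 are highest in WT chow, Gsta1, Gstm1, Gstm3 and Ugt1a9 in KO chow, and Sult1e1 is high in the CDAHFD groups.

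Most Ugt genes were called lower when KO chow or WT CDAHFD livers were compared with WT chow. Ugt1a9 was called higher in the KO chow comparison only, and the weakly expressed Ugt1a7c was called higher in both. Ugt2b35 and Ugt2b37 were called in neither. Ugt2b1 (chr5:86916638-86926530, minus strand), a glucuronosyltransferase of steroids and xenobiotics, had 742, 930, 856 and 1441 CPM in WT chow livers, 230 and 201 in KO chow livers, 239, 232 and 215 in WT CDAHFD and 174, 211 and 141 in KO CDAHFD. WT chow did not overlap the others, and the log2 fold changes were −2.20 (SE 0.26, adjusted p = 2.72e-05) and −2.12 (SE 0.22, adjusted p = 5.01e-06). Ugt2b38 had 51.4, 13.2, 18.4 and 38.4 CPM in WT chow livers, 6.74 and 2.50 in KO chow livers, 1.46, 1.65 and 1.70 in WT CDAHFD and 0.436, 0.749 and 0.904 in KO CDAHFD. The groups descended in that order without overlap, with −2.72 (SE 0.55, adjusted p = 0.00187) in KO chow and −4.24 (SE 0.51, adjusted p = 1.99e-05) in WT CDAHFD on the log2 scale. Ugt2b5, per kb the most abundant Ugt over the 12 libraries (434 CPM per kb), shares 34.8% of its windows with Ugt2b38. It had 1064, 960, 1288 and 1708 CPM in WT chow livers, 870 and 729 in KO chow livers and 542, 538 and 555 in WT CDAHFD. Ugt2b5 fell by 1.20 (SE 0.19) and Ugt2b36 by 0.98 (SE 0.17) in WT CDAHFD on the log2 scale. In KO chow they fell by 0.65 (SE 0.21) and 0.59 (SE 0.19), and either call was lost without either KO chow library and with the total count as the only scaling. Ugt2b34 differed by −0.31 in WT CDAHFD (SE 0.10, adjusted p = 0.0181), and with the total count as the only scaling it was 0.26 higher, so no direction is given for it. Ugt2a3 fell by 1.42 (SE 0.21) in KO chow and by 2.04 (SE 0.19) in WT CDAHFD.

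In the Ugt1a locus Ugt1a1 (chr1:88211959-88218997, plus strand), the enzyme that conjugates bilirubin, had 73.1, 79.3, 99.0 and 77.9 CPM in WT chow livers, 25.2 and 30.0 in KO chow livers, 43.7, 45.5 and 55.4 in WT CDAHFD and 40.1, 35.8 and 53.8 in KO CDAHFD. KO chow was lowest and WT chow highest without overlap, and the log2 fold changes were −1.58 (SE 0.19, adjusted p = 3.56e-05) in KO chow and −0.77 (SE 0.16, adjusted p = 0.0013) in WT CDAHFD, the latter lost with the total count as the only scaling. Ugt1a9 (chr1:88070800-88218997, plus strand), which conjugates bulky phenols, had 39.6, 19.3, 16.7 and 18.4 CPM in WT chow livers, 62.2 and 61.9 in KO chow livers, 17.5, 20.3 and 22.7 in WT CDAHFD and 7.73, 6.58 and 15.2 in KO CDAHFD. Both KO chow libraries lay above all others, at 1.40 (SE 0.34, adjusted p = 0.00566) against WT chow on the log2 scale, while WT CDAHFD differed from WT chow by −0.22 (SE 0.31, adjusted p = 0.587). Ugt1a5 fell by 1.88 (SE 0.36) in KO chow and by 1.20 (SE 0.29) in WT CDAHFD. Ugt1a6a, which acts on planar phenols, fell by 1.12 (SE 0.28) and by 1.04 (SE 0.24). With the total count as the only scaling Ugt1a6a was not called in either, nor Ugt1a5 in WT CDAHFD, and Ugt1a6a in KO chow was not called without KO chow replicate 1. Ugt1a6b fell by 1.23 (SE 0.23) in KO chow and differed by −0.35 (SE 0.20, adjusted p = 0.157) in WT CDAHFD. Ugt1a7c had 0.409 to 0.660 CPM in WT chow livers, 0.925 and 1.12 in KO chow livers and 2.64 to 3.79 in WT CDAHFD, at 0.89 (SE 0.31) and 2.55 (SE 0.26) on the log2 scale. The call in KO chow was lost without any of 6 libraries, WT chow 2 and 4, WT CDAHFD 1, KO chow 1 and 2 and KO CDAHFD 1. Between 50.3% and 82.7% of the exonic bases of a Ugt1a member are shared with the others, so values of single Ugt1a genes depend on how reads in the shared exons were assigned, which is not given in the sources used here. Summed over the locus, 9 genes in the table, the log2 difference was −0.61 (SE 0.17) in KO chow and −0.55 (SE 0.15) in WT CDAHFD, and −0.21 and 0.01 with the total count as the only scaling.

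The Ugt3a genes, whose enzymes use sugars other than glucuronic acid, were lowest in KO chow. Ugt3a1 (chr15:9276888-9315032, plus strand) had 69.7, 82.4, 100.2 and 81.7 CPM in WT chow livers, 14.1 and 16.3 in KO chow livers, 39.9, 34.1 and 36.0 in WT CDAHFD and 28.3, 22.8 and 24.1 in KO CDAHFD. The 4 groups did not overlap, and the log2 fold changes were −2.46 (SE 0.17, adjusted p = 4.26e-07) in KO chow and −1.19 (SE 0.13, adjusted p = 1.09e-05) in WT CDAHFD. Ugt3a2 had 453 to 529 CPM in WT chow livers, 157 and 182 in KO chow livers, 243 to 281 in WT CDAHFD livers and 254 to 278 in KO CDAHFD livers, at −1.52 (SE 0.13) and −0.88 (SE 0.11) on the log2 scale. Clusters summed as units gave −0.76 (SE 0.18) and −1.01 (SE 0.16) for Ugt2b, 1.31 (SE 0.15) and 0.78 (SE 0.14) for Gstm, and −1.53 (SE 0.17) and −2.07 (SE 0.15) for Gstp, in KO chow and WT CDAHFD.

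The difference between genotypes depended on the diet. The interaction compares the KO against WT difference on CDAHFD with that on chow. In it 13 members were called with a positive and 10 with a negative value, against 8.63% and 14.5% of all genes. With the total count as the only scaling the calls were 10 and 14 members, against 676 and 4268 of the 17358 genes tested. With TMM the Ugt family had 7 positive and 2 negative calls, the Sult family 4 and 1, and the Gst family 2 and 7. Among members with a mean of at least 50 counts, the called values of largest size were −6.72 (SE 0.34, adjusted p = 1.9e-07) for Gsta1, 5.18 (SE 0.44, adjusted p = 8.05e-06) for Sult2a8 and −3.84 (SE 0.33, adjusted p = 9.18e-06) for Gstm3. For Gsta1 KO stood 6.50 above WT on chow and −0.22 (SE 0.20) from it on CDAHFD. For Sult2a8 the values were −5.57 on chow and −0.39 (SE 0.27) on CDAHFD, and for Ugt3a1, whose interaction was 1.91 (SE 0.21, adjusted p = 4.59e-05), −2.46 and −0.55 (SE 0.14). Ugt1a9 had 1.40 on chow and −1.03 (SE 0.34, adjusted p = 0.362) on CDAHFD, with an interaction of −2.44 (SE 0.48, adjusted p = 0.00285). Gstp1 had an interaction of 1.09 (SE 0.23, adjusted p = 0.00387).

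**Figure D5:**
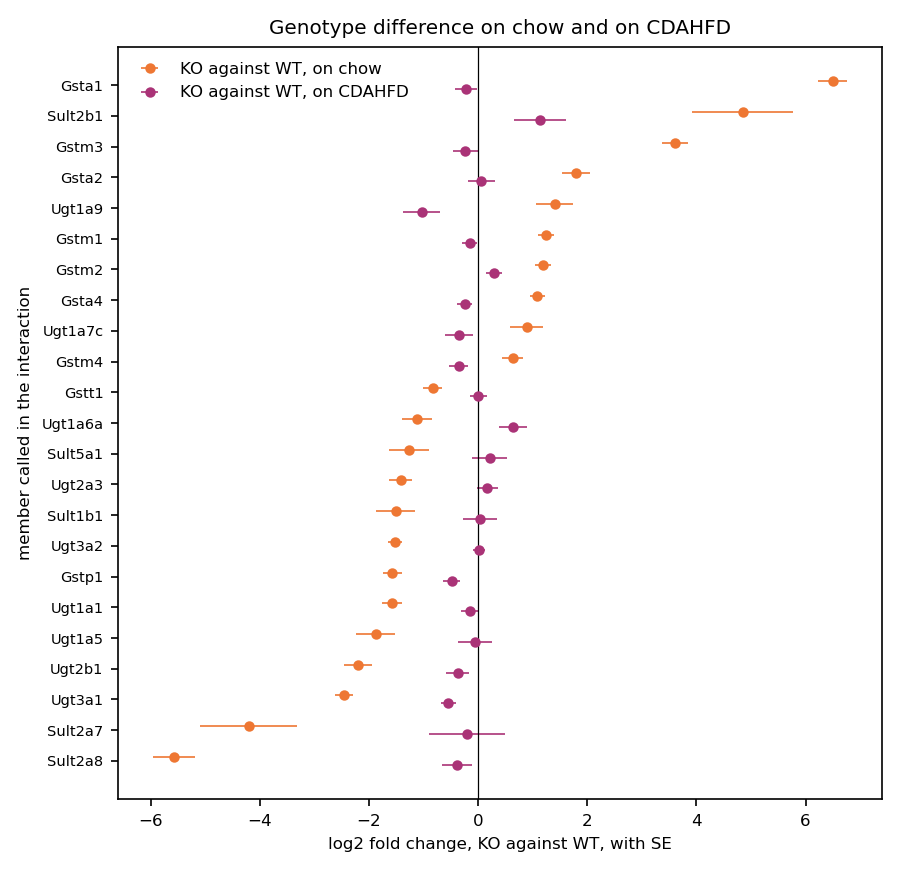
Log2 fold change of KO against WT with SE (x axis) on chow (orange) and on CDAHFD (purple) for the 23 members called in the interaction (y axis). On chow the values run from −5.57 (Sult2a8) to 6.50 (Gsta1), and on CDAHFD none of the 23 is past the threshold.

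Between the genotypes on CDAHFD 0 members were called higher and 0 lower in edgeR's test, where 0.0864% of all genes were called higher and 0.271% lower. At an unadjusted p under 0.05 there were 12 of the 49 members, 6 Ugt, 2 Sult and 4 Gst, against 1523 of the 17358 genes tested. DESeq2 called Ugt2b34 (−0.35) and Ugt3a1 (−0.55) lower. This does not show that the genotypes were alike on CDAHFD. In 11 of the 49 members the KO CDAHFD libraries all lay below the WT CDAHFD libraries, against 11.3% of all genes. These were 9 Ugt genes with Gstp1 and Gstp2. In 5 (Gstm5, Sult1a1, Sult2a2, Sult2b1, Ugt1a6a) the KO CDAHFD libraries all lay above, near the share of 9.47% of all genes. Sult2a2 reached 10 counts only in KO CDAHFD, so it is a member through that group alone. It had 3 counts in KO CDAHFD replicate 1 and in WT CDAHFD replicates 2 and 3, which only library size sets apart. The 6 members whose values follow were picked after they were seen. Gstp1 differed by −0.49 (SE 0.15, adjusted p = 0.322), Ugt3a1 by −0.55 (SE 0.14, adjusted p = 0.169), Ugt2b34 by −0.35 (SE 0.10, adjusted p = 0.272) and Ugt2b38 by −1.20 (SE 0.56, adjusted p = 0.577). On the higher side Ugt1a6a differed by 0.64 (SE 0.25, adjusted p = 0.483) and Sult1a1 by 0.34 (SE 0.18, adjusted p = 0.657).

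Within KO mice members on CDAHFD differed from the chow level. Against KO chow, KO CDAHFD had 5 members higher and 10 lower, against 3.76% and 2.44% of all genes. With the total count as the only scaling there were 7 and 7, against 1245 and 138 of the 17358 genes tested. With TMM the higher members were Sult1e1 (log2 3.97, SE 0.70, adjusted p = 0.00768), Sult2a8 (2.01, SE 0.33, adjusted p = 0.00517), Ugt1a7c (1.31, SE 0.31), Ugt3a1 (0.73, SE 0.16) and Ugt3a2 (0.66, SE 0.13). The lower members were 7 Gst and 3 Ugt genes, among them Ugt1a9 (−2.66, SE 0.37, adjusted p = 0.00231), Ugt2b38 (−2.72, SE 0.58), Gsta1 (−1.28, SE 0.22), Gstp1 (−1.03, SE 0.17), Gstm3 (−0.94, SE 0.25) and Gstm1 (−0.72, SE 0.15). These counts rest on the 2 KO chow libraries: without KO chow replicate 1 there were 0 higher and 2 lower, without replicate 2 there were 2 and 6, and without KO CDAHFD replicate 1 there were 3 and 5. Ugt1a9 was the only Ugt member whose call in this comparison was kept without either KO chow library.

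KO chow and WT CDAHFD livers, each set against WT chow above, were also compared with each other. KO chow had 6 members higher and 7 lower than WT CDAHFD, against 2.71% and 3.42% of all genes. With the total count as the only scaling there were 3 and 7, against 242 and 1025 of the 17358 genes tested. Higher in KO chow with TMM were Gsta1 (log2 1.06, SE 0.22), Gsta4 (0.57, SE 0.15), Gstm1 (0.56, SE 0.15), Gsto1 (0.81, SE 0.10), Sult1a1 (0.75, SE 0.20) and Ugt1a9 (1.62, SE 0.37). Lower were Sult1e1 (−3.82, SE 0.70), Sult2a8 (−2.40, SE 0.34), Ugt1a7c (−1.66, SE 0.31), Ugt3a1 (−1.27, SE 0.16), Ugt1a6b (−0.89, SE 0.24), Ugt1a1 (−0.80, SE 0.19) and Ugt3a2 (−0.65, SE 0.13). Without WT CDAHFD replicate 1 the counts were 1 and 4, without KO chow replicate 1 they were 1 and 2, without WT CDAHFD replicate 2 or 3 1 member was higher, and without KO CDAHFD replicate 1 3 were higher.

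Lists of genes around the conjugation step were read against the shares of all genes called, 22.0% higher and 17.0% lower in KO chow and 26.1% and 25.0% in WT CDAHFD. Of 14 genes that supply cofactors, 3 were higher and 2 lower in KO chow, and 2 higher and 4 lower in WT CDAHFD, which is near or below these shares. Ugdh, which makes UDP-glucuronic acid, rose by 1.12 (SE 0.15) in KO chow and 0.70 (SE 0.14) in WT CDAHFD on the log2 scale, and Gss, glutathione synthetase, by 0.88 (SE 0.12) and 0.66 (SE 0.11). Ugp2, which makes UDP-glucose, fell by 0.79 (SE 0.26) and 0.95 (SE 0.23), and Cbs and Cth of the route to cysteine fell by 1.23 and 1.20 in WT CDAHFD. Of 18 other conjugation enzymes 4 were higher and 9 lower in KO chow, and 3 higher and 12 lower in WT CDAHFD. Hpgds, a sigma class Gst, rose by 3.01 (SE 0.24) and 3.93 (SE 0.23), while the log2 fold changes of the methyltransferases Inmt and Gnmt were −2.34 and −1.10 in KO chow and −4.23 and −2.49 in WT CDAHFD. Of 9 genes of export and deconjugation 2 were higher and 2 lower in KO chow, and 4 and 2 in WT CDAHFD. Abcc4, a transporter of conjugates, rose by 3.64 (SE 0.29) and 1.94 (SE 0.27), and Abcg2 fell by 1.03 (SE 0.14) in KO chow.

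Of 17 regulators of conjugation genes 2 were higher and 7 lower in KO chow, and 2 higher and 8 lower in WT CDAHFD. The 17 include Ppara, the targeted gene, whose lower level in KO chow was set by the design. Nfe2l2, the gene of NRF2, rose by 0.91 (SE 0.14) in KO chow and 0.80 (SE 0.13) in WT CDAHFD on the log2 scale, and Ahr by 0.53 (SE 0.15) and 0.75 (SE 0.13). Nr1i3, the gene of CAR, fell by 1.89 (SE 0.31) and 0.90 (SE 0.25), and Nr1h4, the gene of FXR, by 1.09 (SE 0.17) and 1.30 (SE 0.15). Of 8 NRF2 targets outside the families 6 were higher and 0 lower in either comparison, with Slc7a11 at 0 to 0.0917 CPM in WT chow livers, 23.8 to 30.9 in KO chow livers and 7.91 to 12.1 in WT CDAHFD, and Nqo1 up by 2.52 (SE 0.23) and 2.51 (SE 0.21). Of 10 liver genes that are higher in males, 9 were lower and 0 higher in either comparison, with Hsd3b5 at 478 to 741 CPM in WT chow livers, 1.63 to 3.73 in KO chow livers and 4.30 to 7.69 in WT CDAHFD. Of 8 tested genes that are higher in females, 2 were higher and 2 lower in KO chow and 4 and 2 in WT CDAHFD. Of 10 genes of pericentral hepatocytes, a zone in which several conjugation enzymes are known to be high, 1 was higher and 7 lower in KO chow, and 2 higher and 4 lower in WT CDAHFD. Glul fell by 2.60 (SE 0.13) in KO chow, while it had 1061 to 1206 CPM in WT chow and 1066 to 1144 in WT CDAHFD. The 10 pericentral genes summed to 6931 to 11750 CPM in WT chow and 1793 to 2735 in KO chow. In WT CDAHFD they summed to 5223 to 6353 CPM and in KO CDAHFD to 6635 to 7775. Of 9 clock genes 1 was lower in KO chow and 0 were called in WT CDAHFD, and of 4 tested sex chromosome genes 2 and 3 were lower. The part of these genes in the values of the members was not tested.

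Cell type markers moved with the groups. The summed level of 6 hepatocyte markers was 82290 to 101100 CPM in WT chow livers, 71870 to 82220 in KO chow livers, 42620 to 52040 in WT CDAHFD livers and 40350 to 55290 in KO CDAHFD livers, with 3 and 6 lower in KO chow livers and WT CDAHFD. The 6 cholangiocyte markers summed to 46.1 to 79.6, 166 to 290, 362 to 582 and 574 to 889 CPM in the same order, with 5 and 6 higher. The 6 macrophage markers summed to 278 to 503, 791 to 1038, 704 to 874 and 506 to 850 CPM, with 5 and 4 higher, and the 6 stellate markers to 71.3 to 138, 374 to 401, 415 to 437 and 437 to 648 CPM, with 3 and 3 higher. All 4 proliferation markers were higher in both, from a sum of 4.50 to 6.90 CPM in WT chow to 92.0 to 184 in KO chow and 94.6 to 105 in WT CDAHFD. Of 5 endothelial markers 1 was higher in KO chow and 2 were lower in WT CDAHFD. No marker was at 0 in every library. In these bulk samples fewer cells of a type and less RNA per cell cannot be told apart, and the part of the cell types in the members' values was not tested.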

How the data were processed

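Poly-A RNA from 12 livers was sequenced on an Illumina NovaSeq, and the methods describe no step that keeps strand. The authors checked reads with FastQC 0.11.5, aligned them to GRCm38 with STAR 2.7.3a and deposited raw counts per Ensembl gene, 1 column a library. The counting program, its strand setting, its handling of reads shared by genes and the annotation release are not given in the sources used here. Group and replicate came from the sample titles, which give 2 KO chow libraries where the methods speak of 3 mice a group. Symbols and positions came from GENCODE M21, which matched 94.08% of the identifiers.

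The counts were analysed in R 4.3.3 with edgeR 4.0.16 (filterByExpr, TMM, glmQLFit and glmQLFTest, a mean for each of the 4 groups over all 12 libraries). The p were adjusted by Benjamini-Hochberg over 17358 genes, and a gene was called under 0.05. The SE is the log2 fold change divided by the root of F. Total counts of 29906785 to 43551003 a library set the precision, and a count of 0 allows up to 3 counts by counting error alone. Interaction means the KO against WT difference on CDAHFD minus that on chow. Shares per kb used the principal transcript of each gene, and shared sequence was measured as 50-base windows found in exons of another gene. The fit was tested on simulated data. Alternatives were DESeq2 1.42.0, other scalings and filters, a replicate block, the clock score as a covariate, the 2 groups alone, and each library left out. The tables were made with Python 3.11.15, pandas 2.3.3 and matplotlib 3.10.9.

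The members, the lists of other genes and the rule for naming were chosen with earlier results of these data known. Named in each family were the 3 members of highest mean CPM, the 3 called members with the largest rise and fall in each comparison among those with a mean of at least 50 counts, every member called in the interaction and any called in opposite directions against WT chow. In other lists the called genes of largest change were named. Where no source ties libraries to animals, p-values measure the spread between these libraries. Replicate numbers were not taken to pair libraries. Deviations of libraries with the same number correlated at −0.242 to 0.266. Libraries with different numbers were not correlated for comparison, so these values cannot decide whether the numbers pair.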

Additional observations from a re-analysis of the deposited data

Results flagged for a closer look

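In 4 of the 34 named members 1 of the 4 WT chow libraries stood apart, judged by the gap to its neighbour over the range of the group (Dixon's ratio at its 95% critical value), a limit that chance passes in about 1 in 20 groups. The ratio was 0.895 for Sult2a7 and 0.919 for Ugt1a6a, both with replicate 1 lowest, 0.887 for Ugt1a9, with replicate 1 highest, and 1.0 for Sult2b1, where replicate 3 held the only count.

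For 23 members the KO against WT difference on CDAHFD differed from that on chow by the interaction test (edgeR, adjusted p under 0.05). On the log2 scale the interaction was −6.72 for Gsta1, −1.74 for Gsta2, −1.34 for Gsta4, −1.40 for Gstm1, −0.898 for Gstm2, −3.84 for Gstm3 and −0.988 for Gstm4. It was 1.09 for Gstp1 and 0.842 for Gstt1. In the Sult family it was 1.54 for Sult1b1, 4.0 for Sult2a7, 5.18 for Sult2a8, −3.72 for Sult2b1 and 1.48 for Sult5a1, where the fitted values of Sult2a7 and Sult2b1 rest on few counts and depend on the prior count. In the Ugt family it was 1.42 for Ugt1a1, 1.83 for Ugt1a5, 1.76 for Ugt1a6a, −1.24 for Ugt1a7c, −2.44 for Ugt1a9, 1.59 for Ugt2a3, 1.83 for Ugt2b1, 1.91 for Ugt3a1 and 1.54 for Ugt3a2. The calls of Gstt1, Sult1b1 and Sult5a1 were lost with the total count as the only scaling. With 1 library left out, 8 of the 23 calls were lost at least once. Those of Gstm4 and Ugt1a5 were lost without KO chow replicate 1. That of Gstt1 was lost without either KO chow library or without replicate 2 of WT CDAHFD or KO CDAHFD, and that of Sult2a7 without any of 5 libraries (WT CDAHFD 3, KO chow 1 and 2, KO CDAHFD 1 and 2). That of Sult2b1 was lost without any of 7 (WT chow 1, 2 and 4, WT CDAHFD 1 and 2, KO chow 1, KO CDAHFD 1) and fell in size to −2.20 without KO chow replicate 1. Sult1b1, Sult5a1 and Ugt1a7c each lost the call without any of 9 libraries. The calls were kept only without WT chow 1 or 4 or KO CDAHFD 3 for Sult1b1, without WT chow 2, KO chow 1 or KO CDAHFD 3 for Sult5a1, and without WT chow 1, WT CDAHFD 3 or KO CDAHFD 3 for Ugt1a7c. Without KO chow replicate 2 the value of Sult5a1 was 0.83.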

How the results depend on the processing

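Of 111 calls of named members in the comparisons of groups and the interaction, 62 held under every alternative run for them, 49 were lost in at least 1, and 1 of these also reversed (Ugt2b34 in WT CDAHFD, 0.26 with the total count as the only scaling). The 2 groups alone gave a value for 87 of the 111, since the 23 interaction calls need all 4 groups and Sult2b1 in KO chow against WT chow was not tested there. With the total count as the only scaling 13 members were lower in WT CDAHFD against WT chow, beside 1170 of the 17358 genes tested. With that scaling 3 were higher in KO chow against WT CDAHFD, beside 242 of all genes tested. The log2 ratios of the family sums to WT chow then became −0.46 and −0.47 (Ugt), −1.74 and −1.37 (Sult) and 0.28 and −0.080 (Gst) in KO chow and WT CDAHFD. KO chow against WT CDAHFD had 10 higher with no filter beyond 1 count, 10 with the clock score and 12 with the 2 groups alone. KO CDAHFD against KO chow had 3 higher and 5 lower with the 2 groups alone. KO CDAHFD against WT CDAHFD had 1 lower with no filter (Ugt1a9), 2 with the clock score (Ugt1a6b, Ugt3a1), 1 with the 2 groups alone (Ugt2b35) and 2 with DESeq2. The replicate block, with numbers that are not known to pair the libraries, gave 3 higher in KO CDAHFD against KO chow and 3 in KO chow against WT CDAHFD.

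With 1 library left out the higher and lower counts ran from 8 to 13 and 14 to 21 in KO chow against WT chow, 11 to 15 and 22 to 26 in WT CDAHFD against WT chow, 0 to 0 and 0 to 0 in KO CDAHFD against WT CDAHFD, 0 to 6 and 2 to 12 in KO CDAHFD against KO chow, 1 to 7 and 2 to 7 in KO chow against WT CDAHFD, and 10 to 15 and 7 to 11 in the interaction. The lowest count of 8 came without KO chow replicate 1. Where 1 KO chow library remained, it was assumed to vary like the other groups. Genes under about 20 counts a library, such as Sult2a7, Sult2b1 and Sult4a1, are limited by depth.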
